A study of Mus musculus with 8 samples.

Results

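Processed pseudogenes are copies of spliced mRNAs that were reverse-transcribed and inserted back into the genome, usually without introns or a promoter of their own. Housekeeping mRNAs, above all those of ribosomal proteins, have left many such copies in mammalian genomes. A short read can therefore match a copy and the gene it came from (its parent) equally well, and a counting program that keeps reads with a unique genomic match leaves such reads out. The deposited table held 52550 genes, of which 8648 carry the gene type processed pseudogene in the GENCODE annotation of GRCm38. At least 1 read was counted on 2713 of these, and 231 reached at least 1 CPM (counts relative to all gene reads of the library) in all 4 input libraries. These 231 are described here, beside the 10754 genes of any type that passed the same minimum and were tested. They were chosen by the inputs' CPM, so their input levels are a description. Just inside the minimum stood *Gm5449*, *Gm13532* and *Gm12017* with a lowest input level of 1.08 CPM each, and just outside it *Gm11878*, *Gm9013* and *Gm12944* with 0.964 CPM each.

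The study asked which transcripts the RNA helicase eIF4A2, a factor of translation initiation, binds in mouse embryonic stem cells (ESCs). Both cell lines used here were *Eif4a2* KO ESCs grown in ES-DMEM/2i with LIF. The EV line carried an empty vector, and the eIF4A2 FL line re-expressed Flag-tagged *Eif4a2* (full length according to the paper) from a transposon-based vector. RNA was immunoprecipitated (RIP) from both lines with the anti-FLAG M2 antibody and the Magna-RIP kit, and QuantSeq 3′ FWD libraries of RIP and input RNA were read over 50 bases. The 8 libraries, an input and a RIP library from each line with a replicate of each, are named input or RIP, then EV or eIF4A2 FL, then replicate 1 or 2. The study's figure legend names 2 clones per isoform as biological replicates. The sources used here do not say how the EV replicates arose, so every p-value measures the spread between these samples, which may be technical. In RIP eIF4A2 FL 2, a label field reads "RIP Eif4a3", whereas its title and genotype name *Eif4a2*. QuantSeq gives 1 tag per transcript, so CPM were compared between genes without regard to length.

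The libraries held 7269765 and 3204369 gene reads in input EV, 4620862 and 6225787 in input eIF4A2 FL, against 2044853 and 3345151 in RIP EV and 11206420 and 9976801 in RIP eIF4A2 FL. A single read was thus worth between 0.0892 CPM (RIP eIF4A2 FL 1) and 0.489 CPM (RIP EV 1). Counts without a unique genomic match made up 45.6% and 52.1% of all counts in input EV and 46.1% and 44.5% in input eIF4A2 FL. They were 33.5% and 39.9% in RIP EV and 27.9% and 27% in RIP eIF4A2 FL. Whether a read with several matches entered this class only once is not given in the sources used, so these may not be shares of reads. Reads that the counting program placed on no annotated feature reached 45.8% and 29.7% in RIP EV. They were 3.3% and 4.13% in RIP eIF4A2 FL and 8.58% to 17.6% in the inputs. Where in the genome these reads lie, inside or outside genes, was not examined. The part that these differences take in the pseudogene results was not tested. Which annotation release was counted, and with which strand option, is not given in the sources used here, so counts at overlapping genes and near-identical copies are uncertain.

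The ESC label was checked with marker lists. The 8 ESC markers summed to 2057–2545 CPM in the inputs, 1422 and 1799.9 in RIP EV, and 2356 and 2730.2 in RIP eIF4A2 FL, with *Tfcp2l1* the most abundant in every input (577–979 CPM). *Pou5f1* stood at 5.78–19.7 CPM in the inputs and at 0 in both RIP EV libraries. The 5 fibroblast markers summed to 75.8–115 CPM in the inputs, nearly all of it *Fn1*, and *Col3a1* was at 0 in all 8 libraries. The 5 primitive endoderm markers summed to 325–576 CPM there, nearly all of it *Sparc*, with *Sox17* and *Pdgfra* at 0 in every input. The 4 markers of formative and primed cells summed to 103–198 CPM, most of it *Dnmt3b*, with *Fgf5* at 0 in 3 inputs and at 0.312 CPM in input EV 2.

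The pseudogenes came mainly from the protein synthesis machinery. A parent was the protein-coding gene with the best-scoring blastn match to the pseudogene's exon sequence. By the parent's symbol, 161 members (69.7%) had a cytosolic ribosomal protein gene as parent, spread over 70 genes. The most abundant member, *Gm11942*, is not among them, because its best match was *Gm10073*. The number was 164 when the best match had to have 2 or more exons. *Gapdh*, which encodes a glycolytic enzyme, was the parent of 8 members, and of 13 when the best match had to have 2 or more exons, a choice made after the data were seen. The 5 others matched the intronless *Gm10358* best. *Rpl36* followed with 7. The chromatin gene *Hmgb1* gave 6 members and the nucleolar gene *Npm1* 1. Subunits of the respiratory chain and ATP synthase gave 6, chaperones and prolyl isomerases 6, tubulin genes 5, translation factors 2, and pluripotency genes 1, a copy of *Dppa5a*. None of the members had *Eif4a1*, *Eif4a2*, *Eif4a3* or another eIF4F or eEF1 gene as parent. The table held *Eif4a-ps4*, with 2 counts in RIP eIF4A2 FL 1 and 0 counts in the other libraries.

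Identity to the parent ran from 77.5% to 100%, with a median of 96.8%. It was under 95% for 62 members, from 95% to under 99% for 122, and at least 99% for 47, of which 10 were identical to their parent over the match. To describe how far a read could be placed, each 50-base stretch of a pseudogene was looked up in both strands of the genome and across annotated splice junctions. A median of 59.7% of a member's stretches (quartiles 35–81.7%) were unique, with 11 members at 0% and 6 at 100%. At the parents, the last 300 bases of the transcript, where QuantSeq reads start, were less unique than those of the pseudogenes (medians 33.1% and 63.7%). This held for 128 members, while in 97 the end of the pseudogene was the less unique one. For 102 members under 25% of the parent's end was unique, and for 48 none of it was. Reads of such parent mRNAs with more than 1 match would be left out of the counts, while reads that differ from the parent stay with the pseudogene.

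By position, 150 members (64.9%) were intergenic, 43 lay in an intron of another gene on the opposite strand, 27 in an intron on the same strand, 6 overlapped an exon on the opposite strand, and 5 an exon on the same strand. They lay on 20 chromosomes, with most on chromosome 1 (23 members). The median exon length was 458 bases, shorter than the 556 bases of the 2482 other processed pseudogenes with a read and the 529 bases of the 5935 without one. The share of A in the 30 bases after the annotated end (a trace of a poly(A) tail, where an oligo(dT) primer could also bind) had a median of 33.3% in the members and 33.3% in the other read pseudogenes. A run of 10 A followed 1 member and 32 of the others.

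Levels spanned a wide range, from a mean input level of 1.5 CPM to 6534 CPM. The median member stood at 4.81 CPM (quartiles 3.06–10.5), against 22.6 CPM for all genes tested. There were 59 members at 10 CPM or more, 7 at 100 or more and 3 at 1000 or more. Level was hardly related to sequence across members. The rank correlation of the log2 input level was 0.12 with identity and −0.07 with the share of unique stretches (n = 231 each), and 0.1 with the parent's level (n = 216). These are correlations across genes, which are not independent replicates.

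*Gm11942*, a copy of the mRNA of *Rplp1*, a protein of the ribosomal stalk, was the most abundant member. It lies between genes on chromosome 4 (mm10, 32964888–32965232, + strand), and its best-scoring match was *Gm10073*, an intronless gene of the same family (97.7% identity, against 97.4% for *Rplp1*). Its level was 5927 and 7622 CPM in input EV, 5362 and 7225 in input eIF4A2 FL, against 1067 and 1325 in RIP EV and 1582 and 1678 in RIP eIF4A2 FL. Every RIP library was below every input, and both RIP eIF4A2 FL libraries were above both RIP EV libraries. *Rplp1* itself was counted at 491–648 CPM in the inputs, and *Gm10073* at 6.33–14.4 CPM. Of their transcript ends, 29.9% and 29.5% were unique. How far the counts of *Gm11942* reflect transcripts of its own was not tested.

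*Rps3a3*, a copy of the mRNA of the small-subunit protein *Rps3a1*, came next. It lies in an intron of *Pde4d* on the same strand (chromosome 13, 108670603–108671397, +) with 98.9% identity. Its level was 2503 and 2251 CPM in input EV, 3046 and 4567 in input eIF4A2 FL, against 831 and 910.3 in RIP EV and 1098 and 927 in RIP eIF4A2 FL. The RIP libraries were again all below the inputs. *Rps3a1* itself was counted at 0.803–2.75 CPM in the inputs, and 4.38% of its transcript end was unique. Transcripts of the parent and of the pseudogene cannot be told apart from these counts.

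*Gm10036*, a copy of the large-subunit mRNA *Rpl11* with 99.3% identity, had 1285 and 1431 CPM in input EV, 1402 and 1865 in input eIF4A2 FL, against 632 and 605 in RIP EV and 1378 and 1079 in RIP eIF4A2 FL. It is intergenic (chromosome 18, 15832794–15833327, +). Its RIP eIF4A2 FL libraries lay between the RIP EV and input eIF4A2 FL libraries. *Rpl11* itself had 9.8–27.5 CPM in the inputs although 87.6% of its end was unique. *Rps13-ps1* (chromosome 8, 87047689–87048226, +, intergenic, 99.6% identity) is a copy of *Rps13*, another small-subunit gene. It had 302 and 248 CPM in input EV, 333 and 504 in input eIF4A2 FL, against 62.6 and 86.1 in RIP EV and 318 and 231 in RIP eIF4A2 FL. Both RIP EV libraries were the lowest. *Rps13* had 4.4–8.01 CPM in the inputs with 1.99% of its end unique.

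Next among the most abundant members were *Gm4997* (a copy of *Rps20*, 237–353 CPM in the inputs), *Gm17511* (*Rplp1*), *Gm12901* (*Rpl11*), *Rpl7-ps7* (*Rpl7*) and *Gm19739* (*Rpl39*), all from ribosomal protein genes. Some were read unevenly in RIP EV. *Gm4997* had 3.42 CPM in RIP EV 1 and 176 in RIP EV 2, and *Gm19739* 0 and 28.1.

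Members took 1.25% and 1.42% of the gene reads in input EV, 1.3% and 1.71% in input eIF4A2 FL, against 0.703% and 0.501% in RIP EV and 0.584% and 0.525% in RIP eIF4A2 FL. The means were 1.33 ± 0.12%, 1.5 ± 0.29%, 0.602 ± 0.143% and 0.554 ± 0.0417% (SD, n = 2), so every RIP library was below every input. No test was run on the shares. *Gm11942*, *Rps3a3* and *Gm10036* carried 75.6–79.9% of these reads in the inputs, 36% and 56.6% in RIP EV, and 69.5% and 70.2% in RIP eIF4A2 FL. The other members took 0.283–0.343% of the gene reads in the inputs, 0.45% and 0.217% in RIP EV, and 0.178% and 0.156% in RIP eIF4A2 FL. The high value in RIP EV 1 came from *Gm9625*, which took 0.191% there. Without this member, left out after its values were seen, the other members took 0.259% in RIP EV 1, below every input, and the share of all members there was 0.512%. With the 10 most abundant genes of each library left out, the shares were 0.719–1.07% in the inputs, 0.89% and 0.597% in RIP EV, and 0.619% and 0.565% in RIP eIF4A2 FL. Those 10 genes included *Gm11942* in every input and no member in any RIP library, so these shares cover 230 members in the inputs and 231 in RIP and cannot be compared between them.

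**Figure D1:**
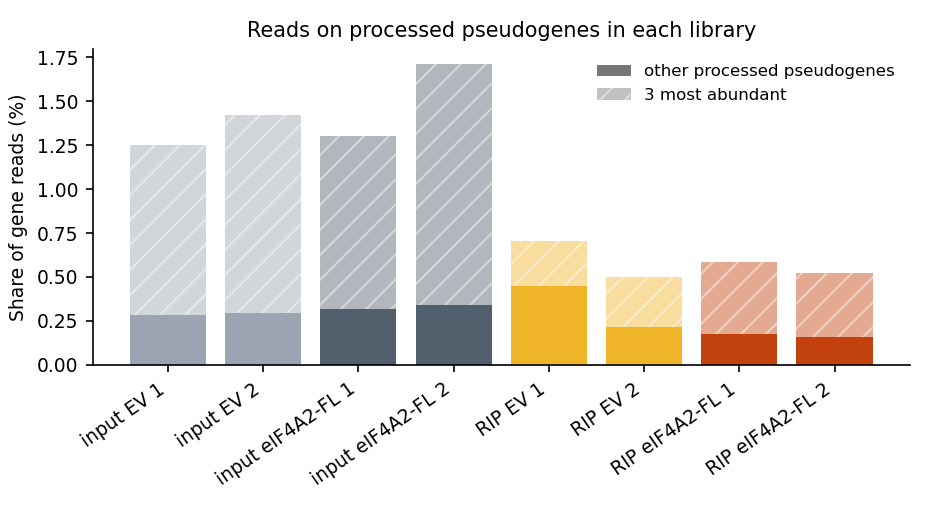
Share of gene reads on the 231 processed pseudogenes in each of the 8 libraries (bars, in percent of gene reads), with *Gm11942*, *Rps3a3* and *Gm10036* hatched. The inputs stand at 1.25–1.71% and the RIP libraries at 0.501–0.703%.

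RIP EV libraries, made from cells without a Flag-tagged protein, covered the pseudogenes thinly. Of the 231 members, 119 had 0 counts in RIP EV 1, 90 in RIP EV 2 and 69 in both (29.9%, against 18.2% of all genes tested), while 231 and 228 had a read in the RIP eIF4A2 FL libraries. Where both RIP EV libraries had 0 counts, 3 counts over the pair, or 0.557 CPM, was taken as the highest level the zeros leave room for, which covers counting error alone. The RIP EV libraries also differed from each other, with 21 members above 10 CPM in RIP EV 1 and below 1 CPM in RIP EV 2, and 18 the other way round. Within a 2-fold range of each other (CPM + 1) were 62.8% of the members in RIP EV (46.4% of all genes tested), 91.3% in RIP eIF4A2 FL (95.2%), 87.9% in input EV (87.9%) and 85.3% in input eIF4A2 FL (91.0%). The value in RIP EV depends on level, as 119 members were under 1 CPM in both libraries, where the added 1 places any values within that range.

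**Figure D2:**
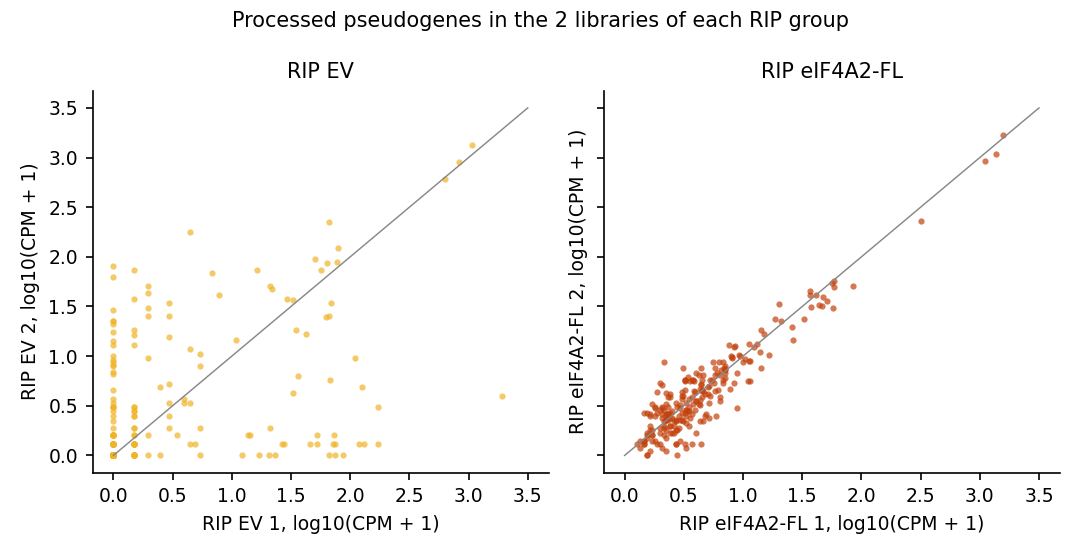
Each processed pseudogene in RIP EV 1 against RIP EV 2 (left) and RIP eIF4A2 FL 1 against RIP eIF4A2 FL 2 (right), as log10(CPM + 1), with the line of equal levels. In RIP EV, 71 members have 0 counts in 1 library alone and lie on an axis, and in RIP eIF4A2 FL 91.3% lie within a 2-fold range.

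RIP eIF4A2 FL was compared with RIP EV to find RNA recovered with the tagged protein beyond the background of the antibody and beads. In edgeR's quasi-likelihood test, adjusted by Benjamini-Hochberg over all genes tested, 63 pseudogenes (27.3%) rose, beside 24.8% of all genes, and 7 (3.03%) fell, beside 5.46%. The share that rose lies near that of all genes, so it is not a result about the pseudogenes. Both RIP eIF4A2 FL libraries were above both RIP EV libraries for 132 members (57.1%, against 51.9% of all genes) and below them for 15 (6.49%, against 12.1%). The median log2 fold change was 1.58 for the members and 0.64 for all genes. As pooled ratios without TMM, with RIP EV zeros at their bound, the medians were 1.08 and 0.79. TMM scaling bears on these values, because without it the median of all genes was 0.88 here, 0.33 for RIP eIF4A2 FL over its input (0.02 with TMM) and −0.59 for RIP EV over its input (−0.64 with TMM).

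Those counts rested on RIP EV zeros and on few libraries. Of the 63 members that rose, 50 had 0 counts in both RIP EV libraries, 9 in 1 of them and 4 in neither. The number that rose was 38 without RIP eIF4A2 FL 1 (16.5%, against 18.5% of all genes). The number that fell was 27 and 37 without RIP EV 1 and 2 (11.7% and 16%, against 18.2% and 16.2%), 0 and 2 without RIP eIF4A2 FL 1 and 2 (0.0% and 0.866%, against 1.32% and 1.65%), and 3 without any 1 of the inputs (1.3%, against 3.71% to 3.81%). A group with a library left out holds a single one, so that the spread in these fits comes from the other groups, and a fitted value over a single library with 0 counts is not a measured size. The median was 4.57 without RIP EV 2, and 0.73 for members at 2 CPM or more. Without RIP EV 1 or without RIP EV 2, a smaller share of members than of all genes rose. With a replicate block 4 members fell (1.73%, against 3.96%). A fit of the 4 compared libraries alone called 0 members (and 0.0% of all genes) in either direction, so each call named in this comparison ends there, and DESeq2 on the 8 libraries called 64 higher (27.7%, against 30.4% of all genes) and 23 lower (9.96%, against 10.5%).

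*Gm16399* led the members that rose. It is a copy of *Cox6c*, a subunit of cytochrome c oxidase, in an intron of *Car1* on the same strand (chromosome 3, 14802356–14802574, −), with 95.3% identity, and all of its 50-base stretches were unique. It had 22.3 and 21.5 CPM in input EV, 13.2 and 33.4 in input eIF4A2 FL, against 0 and 0 in RIP EV and 40.1 and 40.4 in RIP eIF4A2 FL. The RIP eIF4A2 FL libraries were above every other library. Against the RIP EV floor it was at least 72.3-fold higher, and at least 44.8-fold and 27.4-fold without RIP EV 1 and 2. The fitted log2 value of 10.75 (adjusted p = 0.00662), over 0 counts in both RIP EV libraries, is not a measured size. *Cox6c* itself had 1443 and 1481 CPM in input EV, 1466 and 2049 in input eIF4A2 FL, against 156 and 643 in RIP EV and 2545 and 2613 in RIP eIF4A2 FL. It rose by 2.43 on the log2 scale (adjusted p = 0.0245), which was 3.86 without RIP EV 2 and passed no longer when any 1 of the RIP eIF4A2 FL or input libraries was left out (adjusted p 0.0505 to 0.0879).

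Other members with 0 counts in RIP EV rose as well. *Ftl2-ps* (chromosome 4, 125504288–125504839, +) is a ferritin light chain copy that overlaps an exon of *Mir692-2*. It had 9.99 and 4.61 CPM in RIP eIF4A2 FL and 13.2–49.3 CPM in the inputs, at least 13.4-fold above the floor (adjusted p = 0.0192, and 0.0745 without RIP eIF4A2 FL 1). That bound was 8.32 and 5.08 without RIP EV 1 and 2. *Tdpx-ps1* (chromosome 1, 99790429–99791025, −) is a copy of *Prdx2*, a peroxiredoxin that removes hydrogen peroxide. It had 4.55 and 7.82 CPM in RIP eIF4A2 FL and 4.06–8.67 in the inputs, at least 10.9-fold above the floor (6.79 and 4.15 without RIP EV 1 and 2; adjusted p = 0.00926). *Prdx2* had 83.1–109 CPM in the inputs and RIP eIF4A2 FL and 70.9 and 61.3 in RIP EV, with a log2 value of 0.22 (adjusted p = 0.722). *Gm8444* (chromosome 15, 81843346–81843713, −), a copy of the large-subunit gene *Rpl35*, had 5.35 and 5.41 CPM in RIP eIF4A2 FL and 10.6–23.7 in the inputs, at least 9.67-fold above the floor (6.0 and 3.67 without RIP EV 1 and 2; adjusted p = 0.00942). In each of these 3, both RIP eIF4A2 FL libraries were above both RIP EV libraries.

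Members that rose with reads in both RIP EV libraries were few, and 3 of the 4 were outside the rule for named genes and were picked after their values were seen. *Rps13-ps1* rose by 1.60 ± 0.349 (log2, SE; adjusted p = 0.0143), and did not pass without RIP eIF4A2 FL 1 (adjusted p = 0.087). *Gm7117* (*Rpl12*) rose by 3.10 and *Gm13611* (*Rpl36*) by 2.85, both from a single count in each RIP EV library, with adjusted p of 0.0121 and 0.0116. Neither passed without RIP eIF4A2 FL 1 (0.0552 and 0.0505). *Gm9701* (*Rps23*) rose by 2.19 (adjusted p = 0.0497), and that call ended without any 1 of the libraries except input eIF4A2 FL 1 (adjusted p up to 0.15).

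Most of the 7 members that fell had more reads in RIP EV than in the inputs. *Gm9625* (chromosome 13, 67810246–67811200, +, in an intron of *4930525G20Rik* on the opposite strand) is a copy of *Rplp0*, the base of the ribosomal stalk. It had 2.48 and 9.36 CPM in input EV, 6.06 and 6.42 in input eIF4A2 FL, against 1913 and 2.99 in RIP EV and 0.803 and 0.401 in RIP eIF4A2 FL. The high value stood in RIP EV 1 alone. The log2 fold change of −10.88 (adjusted p = 0.0294) was −2.51 without RIP EV 1, and the call ended when any 1 of the RIP eIF4A2 FL or input libraries was left out (adjusted p 0.0634 to 0.171).

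*Gm11531* (chromosome 11, 96392112–96392666, +, intergenic), a copy of the large-subunit gene *Rpl17*, was read evenly in RIP EV. It had 10.6 and 8.11 CPM in input EV, 14.5 and 8.99 in input eIF4A2 FL, against 76.3 and 87.9 in RIP EV and 4.82 and 5.41 in RIP eIF4A2 FL. Both RIP EV libraries were above all others and both RIP eIF4A2 FL libraries below all others. It fell by 4.28 ± 0.672 (log2, SE; adjusted p = 0.00663, and 0.0532 without RIP eIF4A2 FL 1). *Rpl17* had 7.82 and 48.1 CPM in RIP EV and 16.6 and 15.4 in RIP eIF4A2 FL.

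*Gm9892* (chromosome 8, 52196065–52197056, −, intergenic) is a copy of *Eif2s2*, the β subunit of the initiation factor eIF2, and *Gm20900* (chromosome 13, 120304194–120304665, −, in an intron of *BC147527* on the opposite strand) of the large-subunit gene *Rpl23a*. *Gm9892* had 9.49 and 10.3 CPM in input EV, 32.9 and 13.8 in input eIF4A2 FL, against 49.9 and 93.3 in RIP EV and 6.96 and 9.12 in RIP eIF4A2 FL. *Gm20900* had 24.3 and 46.5 CPM in input EV, 36.4 and 41.6 in input eIF4A2 FL, against 77.8 and 120.5 in RIP EV and 12 and 12.3 in RIP eIF4A2 FL. For both, the RIP EV libraries were the highest and the RIP eIF4A2 FL libraries the lowest. *Gm9892* fell by 3.42 (adjusted p = 0.0147), and *Gm20900* by 3.30 (adjusted p = 0.00695). Neither passed without RIP eIF4A2 FL 1 or 2 (adjusted p 0.102 to 0.136 for *Gm9892*, 0.0538 to 0.0579 for *Gm20900*). Their parents moved the same way. *Eif2s2* had 2627 and 2388 CPM in RIP EV and 317 and 393 in RIP eIF4A2 FL (log2 −3.10, adjusted p = 0.00662). *Rpl23a* had 23.0 and 168 CPM in RIP EV and 3.48 and 2.21 in RIP eIF4A2 FL (log2 −5.32, adjusted p = 0.0124), which was −3.20 without RIP EV 2 and did not pass without RIP eIF4A2 FL 1 or 2 (0.0869 to 0.105).

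Of the other 3 members that fell, *Rpl10a-ps2* (chromosome 13, 8940336–8940977, −, intergenic) is a copy of the large-subunit gene *Rpl10a*, with 61.1 and 23.9 CPM in RIP EV against 7.32 and 4.41 in RIP eIF4A2 FL and 1.56–7.23 in the inputs. It fell by 3.15 (adjusted p = 0.0458), and by 2.28 without RIP EV 1. *Rpl19-ps1*, with 31.8 and 35.9 CPM in RIP EV and 6.07 and 6.41 in RIP eIF4A2 FL, fell by 2.71 (adjusted p = 0.0343). *Gm10126*, a copy of *Rps29*, had 4.4 and 9.57 CPM against 0.535 and 1.7 and fell by 2.90 (adjusted p = 0.0247). Its parent went the other way. *Rps29* had 0 and 0 CPM in RIP EV and 11.0 and 7.42 in RIP eIF4A2 FL (adjusted p = 0.00668), a rise from 0 counts without a measured size. *Rpl19-ps1* and *Gm10126* were named after their values were seen. *Rpl10a-ps2* and *Rpl19-ps1* lost their calls without any 1 of the RIP eIF4A2 FL or input libraries (adjusted p up to 0.296 and 0.243), and *Gm10126* lost its call without RIP eIF4A2 FL 1 or any 1 of the inputs (up to 0.158).

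RIP EV against input EV shows which RNA the procedure recovers without a Flag-tagged protein, with an input that the choice of members used. Here 113 pseudogenes (48.9%) fell, beside 26.3% of all genes tested, and 3 (1.3%) rose, beside 4.5%. Both RIP EV libraries were below both inputs for 158 members (68.4%, against 44.9% of all genes) and above them for 11 (4.76%, against 14.6%). The median log2 value was −2.82 for the members and −0.64 for all genes, and −2.08 and −0.51 as pooled ratios with zeros at their bound. Of the 113, 64 had 0 counts in both RIP EV libraries, 31 in 1 and 18 in neither. The number that fell was 74 without input EV 1 (32%, against 19.9% of all genes). The number that rose was 17 and 30 without RIP EV 1 and 2 (7.36% and 13%, against 17.7% and 16.6%), 1 without either RIP eIF4A2 FL library (0.433%, against 2.16% to 2.23%) and 0 without either input EV library (against 0.837% to 1.2%). The median was −6.43 without RIP EV 2, where the share of members that fell lay near that of all genes. A fit of these 4 libraries alone called 0 members, so the calls named here end there, whereas DESeq2 on the 8 libraries called 121 lower (52.4%, against 32% of all genes) and 12 higher (5.19%, against 10%), and edgeR without the filter on low counts 5 higher (2.16%, against 4.16%). The share that fell varied with level. Of the members at 10 CPM or more (n = 59), 17 fell (28.8%, near the 26.3% of all genes), with a median of −1.09 and 0 counts in both RIP EV libraries for 8.47%. Of those below it (n = 172), 96 fell (55.8%), with a median of −3.66 and such zeros for 37.2%. All genes were not split by level, so the larger share over all members cannot be set apart from their low level.

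The most abundant members were chosen and ranked by the inputs, so their values over input EV are a description without a test. *Gm11942* had −2.51 ± 0.261 (log2, SE), *Rps3a3* −1.47 ± 0.273, *Rps13-ps1* −1.91 ± 0.352 and *Gm10036* −1.14 ± 0.244, with reads in every library. In each, both RIP EV libraries were below both input EV libraries. Further down, *Gm4997* had −1.60, *Gm17511* −1.75, *Gm12901* −2.42, *Rpl7-ps7* 0.80 and *Gm19739* −2.68. These 5 turned on the RIP EV library kept. In the same order they were −0.64, −1.31, −1.66, 1.41 and −1.71 without RIP EV 1, and −6.32, −2.46, −4.22 and −0.36 without RIP EV 2, where *Gm19739* had 0 counts in the library that remained. Among members with 0 counts in RIP EV, *Ftl2-ps* was at least 41.7-fold lower than input EV (25.9 and 15.8 without RIP EV 1 and 2), *Gm16399* at least 39.6-fold (24.6 and 15.0) and *Gm8444* at least 26.2-fold (16.3 and 9.96). *Gm10704* was at least 17.2-fold lower (10.6 and 6.51). It copies *Rtraf*, a gene of the tRNA ligase complex, and overlaps an exon of *Ssr2* on the opposite strand (chromosome 3, 88576410–88577139, −). Their adjusted p-values were 0.00938, 0.00805, 0.00805 and 0.00805. Because the inputs chose the members, these and all other calls over input EV are a description too.

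The 3 members that rose in RIP EV were *Rpl10a-ps2* (log2 4.03, adjusted p = 0.0222), *Gm11531* (3.10, adjusted p = 0.0123) and *Gm9892* (2.84, adjusted p = 0.0269). Their parents are genes of the large subunit and of the initiation factor eIF2. The value of *Rpl10a-ps2* was 3.09 without RIP EV 1 and 4.83 without input EV 1. *Gm11531* did not pass without input EV 1 or 2 (adjusted p 0.0604 to 0.089), and *Gm9892* and *Rpl10a-ps2* without either of these or either RIP eIF4A2 FL library (up to 0.151 and 0.146). *Eif2s2*, the parent of *Gm9892*, rose by 1.61 (adjusted p = 0.0179), and not without input EV 1 or 2 (0.0773 to 0.112).

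RIP eIF4A2 FL against its own input compares RNA recovered with the tagged protein with the RNA present, again with an input that the choice used. Both RIP eIF4A2 FL libraries were below both inputs for 163 members (70.6%), against 18.7% of all genes tested, and above them for 9 (3.9%), against 45.8%. The median log2 value was −1.38 for the members and 0.02 for all genes, or −1.07 and 0.32 as pooled ratios without TMM. Unlike the comparisons with RIP EV, this one rests on few zeros: 0 members had 0 counts in RIP eIF4A2 FL 1 and 3 had in RIP eIF4A2 FL 2.

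At the adjusted threshold edgeR called 0 members lower, beside 0.0558% of all genes, and 0 higher, beside 0.0%. At an unadjusted p under 0.05 there were 74 lower (32%, against 5.88% of all genes) and 0 higher (against 3.08%). DESeq2 on the same 8 libraries called 37 lower (16%, against 4.0%) and 0 higher (against 2.55%). A fit of the 4 compared libraries alone called 76 lower (32.9%, against 8.46%) and 0 higher (against 8.44%). Leaving out RIP EV 1 or RIP EV 2, which are not among the libraries compared, gave 81 lower (against 7.86%) and 82 lower (against 7.23%), and the fit without the filter on low counts gave 2. The 2 called lower without the filter were 0.866% of the members, against 0.36% of the 22515 genes in that fit. The shares of counts without a unique match, 27–27.9% in RIP eIF4A2 FL and 44.5–46.1% in its input, moved with this comparison. Their part in it was not tested.

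The lowest p-values among members were those of *Gm11942*, with −2.25 ± 0.258 (log2, SE; adjusted p = 0.083), and *Rps3a3*, with −2.21 ± 0.28 (adjusted p = 0.0934). Neither passed the threshold in edgeR with the 8 libraries, whereas both did in DESeq2 on the same libraries (adjusted p = 7.28e-15 and 1.79e-11). Both also passed in edgeR without RIP EV 1 or 2. All 4 libraries showed the direction in both members, which are also the ones ranked highest by the inputs, so these p-values are not independent of the choice. *Gm10036* had −0.71 ± 0.242 (adjusted p = 0.455) and *Rps13-ps1* −0.91 ± 0.341 (adjusted p = 0.502), smaller sizes in the same direction. Against RIP EV the values were 0.17 for *Gm11942* (adjusted p = 0.68) and 0.71 for *Gm10036* (adjusted p = 0.0723 in edgeR, 0.0109 in DESeq2). *Rps3a3* had −0.06 (adjusted p = 0.899). The last turned to between 0.09 and 0.19 with scaling by library size alone, without the filter on low counts, without RIP EV 2 and without RIP eIF4A2 FL 2.

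Among the 9 members with both RIP eIF4A2 FL libraries above both input eIF4A2 FL libraries, 3 were copies of *Hsp90ab1*, an abundant cytosolic chaperone, 2 of cytochrome c oxidase genes and 2 of *Rpl38*. *Gm7123*, a copy of the large-subunit gene *Rpl38* (chromosome X, 142412755–142412967, +, intergenic), had 3.58 and 7.8 CPM in input EV, 1.73 and 1.93 in input eIF4A2 FL, against 0 and 0 in RIP EV and 4.28 and 4.71 in RIP eIF4A2 FL. Its value over input was 0.99 ± 0.504 (adjusted p = 0.705). *Gm6083*, a copy of *Dppa5a*, which encodes an RNA-binding protein of pluripotent cells (chromosome 5, 29538153–29538509, +, intergenic), had 2.61 and 2.18 CPM in input EV, 1.73 and 2.57 in input eIF4A2 FL, against 0 and 0 in RIP EV and 2.68 and 4.71 in RIP eIF4A2 FL. Its value over input was 0.47 ± 0.486 (adjusted p = 0.989). The RIP eIF4A2 FL libraries of *Gm7123* overlapped those of input EV, and those of *Gm6083* were above all inputs. Against RIP EV, *Gm7123* was at least 8.06-fold higher (5.0 and 3.06 without RIP EV 1 and 2; adjusted p = 0.00689) and *Gm6083* at least 6.53-fold (4.05 and 2.48; adjusted p = 0.0074). *Dppa5a* itself had 199 and 186 CPM in input EV, 248 and 344 in input eIF4A2 FL, against 10.3 and 19.4 in RIP EV and 316 and 240.2 in RIP eIF4A2 FL. It rose over RIP EV by 3.94 (log2, adjusted p = 0.00662).

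The inputs of the cell lines are the libraries whose CPM chose the members, so their comparison is a description. In it edgeR called 0 members higher in input eIF4A2 FL (beside 0.0% of all genes) and 0 lower (beside 0.0%), as did DESeq2 and a fit of the 4 inputs. The median was 0.15 for the members and 0.01 for all genes.

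**Figure D3:**
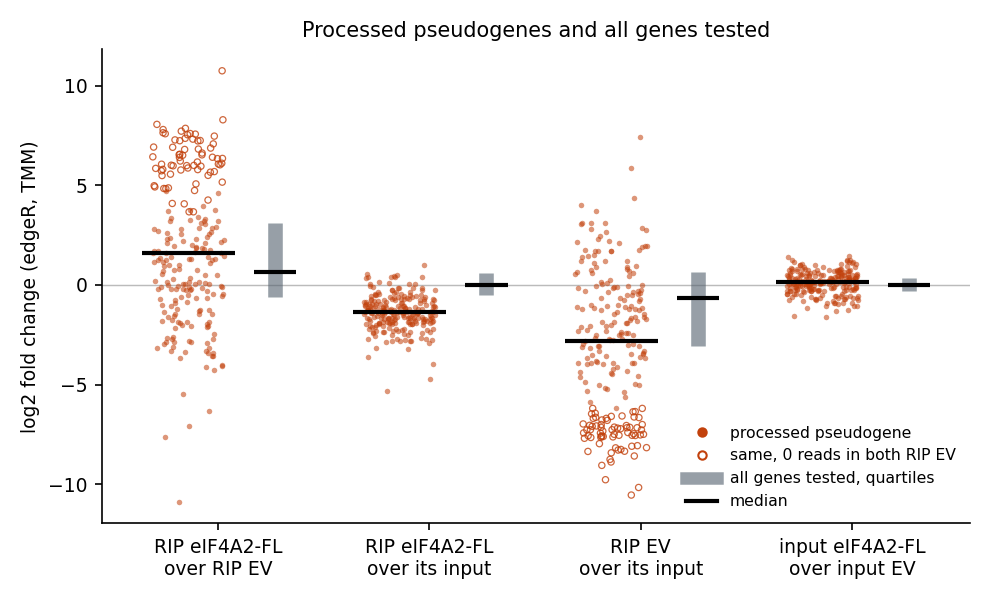
Log2 fold changes of the 231 processed pseudogenes in the 4 comparisons (points, open where both RIP EV libraries have 0 counts), with their median and, in grey, the quartiles and median of all 10754 genes tested. The members' medians are 1.58, −1.38, −2.82 and 0.15, and those of all genes 0.64, 0.02, −0.64 and 0.01.

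The change from input to RIP was then compared between the cell lines by the interaction term of the same fit. That term holds the inputs whose CPM chose the members, so its calls are a description. The change was higher in eIF4A2 FL cells than in EV cells for 35 members (15.2%, beside 19.2% of all genes tested). It was lower for 3 (1.3%, beside 2.1%). Both counts vanished, as did those of all genes, without RIP eIF4A2 FL 1 or 2, input EV 1 or input eIF4A2 FL 1 or 2. They were 16 and 0 without input EV 2 (6.93% and 0.0%, against 12.2% and 0.651% of all genes). Without RIP EV 1 they were 47 and 25 (20.3% and 10.8%, against 35.9% and 11.8%), and without RIP EV 2 59 and 36 (25.5% and 15.6%, against 54.0% and 12.4%).

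The members are next described by parent family, with no test between families, most of which hold few members. Copies of ribosomal protein genes by best match were 161 members, without *Gm11942*, and had a median input level of 5.35 CPM. Their median was 1.43 against RIP EV (1.13 at the bound). Of these, 38 were higher (23.6%) and 6 lower (3.73%), near the 24.8% and 5.46% of all genes. Over input their median was −1.38, with 53 of the 161 lower at an unadjusted p under 0.05, where 5.88% of all genes were. Both RIP eIF4A2 FL libraries were below both inputs for 128 of these copies (79.5%, against 18.7% of all genes). In RIP EV over input, 74 fell (46%, against 26.3%) and 2 rose (1.24%, against 4.5%). The 67 tested ribosomal protein mRNAs that are parents had a median of −1.36 over input in RIP eIF4A2 FL, with 55 below both inputs (82.1%), and −0.38 against RIP EV, with 8 higher (11.9%, against 24.8% of all genes) and 16 lower (23.9%, against 5.46%).

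The 8 copies with *Gapdh* as best match were low throughout, with a median input level of 3.52 CPM. In RIP EV 1 all 8 had 0 counts, and in RIP EV 2 6 had. Of the 8, 5 rose over RIP EV, where 24.8% of all genes did (*Gm8357*, *Gm2383*, *Gm3695*, *Gm8919* and *Gm12017*). *Gm8357* (chromosome 1, 48881713–48882723, +, intergenic) matched *Gapdh* with 86.7% identity. It had 7.84 and 8.74 CPM in input EV, 14.9 and 11.1 in input eIF4A2 FL, and 5.35 and 2.91 in RIP eIF4A2 FL, at least 7.55-fold above the RIP EV floor (4.68 and 2.86 without RIP EV 1 and 2; adjusted p = 0.00935). *Gm2383* was at least 3.9-fold above it (adjusted p = 0.011), *Gm3695* 3.82-fold (adjusted p = 0.00747), *Gm8919* 3.56-fold (adjusted p = 0.02) and *Gm12017* 1.87-fold (adjusted p = 0.0329). Without RIP EV 1 these bounds were 2.42, 2.37, 2.21 and 1.16, and without RIP EV 2 they were 1.48, 1.45, 1.35 and 0.708. *Gm8919* did not pass without RIP eIF4A2 FL 1 or 2 (0.0529 to 0.0705), nor *Gm12017* without either RIP EV library, RIP eIF4A2 FL 1 or input eIF4A2 FL 1 (0.0509 to 0.11). In RIP EV over input 5 fell, beside 26.3% of all genes, and in RIP eIF4A2 FL over input 6 had both libraries below both inputs, beside 18.7%, with a median of −1.80. The remaining copies, *Gm16177*, *Gm8825* and *Gm5787*, had values of −0.47, −1.85 and 4.92 against RIP EV (adjusted p of 0.79, 0.375 and 0.235). Without RIP EV 2, which leaves the 0 counts of RIP EV 1, the fitted values of *Gm16177* and *Gm8825* turned positive. With a single library left in a group and the spread taken from the others, *Gm8825* was called lower without RIP EV 1 and *Gm5787* higher without RIP eIF4A2 FL 2, and *Gm5787* went to 2.23 without RIP eIF4A2 FL 1. Over the 13 copies by the match with 2 or more exons, 9 rose over RIP EV (69.2%, against 24.8% of all genes), 10 fell in RIP EV over input (76.9%, against 26.3%), and the median over input in RIP eIF4A2 FL was −1.87. *Gapdh* itself had 7.15 and 3.74 CPM in input EV, 2.38 and 2.57 in input eIF4A2 FL, against 0 and 0 in RIP EV and 0.714 and 1.3 in RIP eIF4A2 FL, with none of its last 300 bases unique.

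Respiratory chain copies had values near 0 over input. The 6 members had a median of −0.09 in RIP eIF4A2 FL over input (0.23 at the bound), and 2 were above both inputs. Against RIP EV 4 rose, beside 24.8% of all genes, each with 0 counts in both RIP EV libraries. Besides *Gm16399* these were *Gm12338* and *Gm11930*, copies of *Cox7c*, and *BC002163*, a copy of the complex I subunit *Ndufs5*. *Gm12338* is identical to *Cox7c* over its length, with no unique stretch, yet it was counted at 4.02–8.43 CPM in the inputs and at 4.64 and 4.31 in RIP eIF4A2 FL. *Gm15920* (*Ndufa12*) had 0.489 and 72.9 CPM in RIP EV, and *Gm10250* (*Atp5h*) 0 and 13.2, so that RIP EV 2 was their highest library. Apart from *Gm16399* these names were taken after the values were seen, and no test was run over the family.

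The *Hsp90ab1* copies, also named after their values were seen, stood near or above their inputs. *Gm9403* had 6.6 and 11.9 CPM in RIP eIF4A2 FL and 4.37–9.22 in the inputs, *Gm7198* 10.2 and 12.4 against 2.89–9.52, and *Gm6368* 5.26 and 7.72 against 2.73–5.19. None of the 3 was called over input. *Hsp90ab1* itself had 18194 and 13911 CPM in input eIF4A2 FL and 19714 and 23882 in RIP eIF4A2 FL. RIP EV split them, with 117 and 0.299 CPM for *Gm9403*, 0.978 and 29.6 for *Gm7198*, and 171 and 2.09 for *Gm6368*. The copy of *Ppia*, a prolyl isomerase, was *Gm5883*, with 3.85–8.11 CPM in the inputs and 1.7 and 2.41 in RIP eIF4A2 FL (log2 over RIP EV −0.19, adjusted p = 0.925). That value was −1.05 without RIP EV 1. Without RIP EV 2 it turned positive and was called, over the 0 counts of RIP EV 1 as a single library, which measures no size.

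Among the copies of *Hmgb1*, a chromatin protein that bends DNA, *Gm9370* rose over RIP EV (at least 3.39-fold, 2.11 and 1.29 without RIP EV 1 and 2; adjusted p = 0.0359). It did not pass without RIP EV 2, either RIP eIF4A2 FL library or either input EV library (0.0597 to 0.0939). The others, *Gm11645*, *Gm8423*, *Gm3307*, *Gm12568* and *Gm10075*, had adjusted p from 0.179 to 0.973, and *Gm14681*, a copy of the nucleolar gene *Npm1*, 0.37. These values turned on single libraries. Without RIP EV 2 the negative values of *Gm11645* and *Gm3307* turned positive and that of *Gm8423* grew, all over 0 counts in RIP EV 1 and so without a measured size. Without RIP EV 1 *Gm12568* went from −1.90 to 1.53 and *Gm14681* from −1.25 to 0.25, and the value of *Gm10075* grew over 0 counts in RIP EV 2. Calls that came with a single RIP EV library, *Gm11645* higher and *Gm12568* lower on RIP EV 1 and *Gm3307* lower on RIP EV 2, rest on the spread of other groups. *Gm11645* was the most abundant of them, with 18.7 and 9.67 CPM in input EV, 0 and 12 in RIP EV, and 5.71 and 7.82 in RIP eIF4A2 FL. Of the 5 tubulin copies, *Gm3226* and *Gm5620*, both from *Tuba1b*, rose over RIP EV from 0 counts, beside 24.8% of all genes. *Gm3226*, which overlaps an exon of *Il31ra*, was at least 3.99-fold above the floor (adjusted p = 0.0157), and *Gm5620* at least 2.71-fold (adjusted p = 0.0186, and 0.0558 without RIP EV 2). The bounds were 2.47 and 1.68 without RIP EV 1, and 1.51 and 1.03 without RIP EV 2. *Gm14150*, also from *Tuba1b*, had a value of −2.45 over input in RIP eIF4A2 FL (adjusted p = 0.132) and was called without RIP EV 1 or 2 (as low as 0.0273). The translation factor copies went opposite ways, with *Gm9892* lower than RIP EV and *Gm6155*, a copy of *Eif1* named after its values were seen, higher from 0 counts (2.14 and 6.62 CPM in RIP eIF4A2 FL, adjusted p = 0.0152).

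Each pseudogene was set beside its parent where the parent was tested too, which gave 216 pairs with 110 parents. In RIP eIF4A2 FL over input, pseudogene and parent had medians of −1.37 and −1.32, with 174 pairs within 1 log2 unit, a median difference of −0.03 and a rank correlation of 0.47. Against RIP EV, the medians were 1.37 and −0.37, with 37 pairs within 1 unit and a rank correlation of 0.14. In RIP EV over input they were −2.74 and −1.10, with 40 pairs within 1 unit and a correlation of 0.19. Between the inputs they were 0.14 and −0.13, with 173 pairs within 1 unit and a correlation of 0.07. Pairs that share a parent are not independent, and the correlations are across genes. *Rpl7-ps7* and *Rpl7*, a large-subunit gene, show a pair with values on the same side. *Rpl7-ps7* had 65.5 and 223 CPM in RIP EV and 46.6 and 38.8 in RIP eIF4A2 FL (log2 −2.02, adjusted p = 0.0579, −2.63 without RIP EV 1, where it was called with a single RIP EV library, and −0.81 without RIP EV 2). *Rpl7* had 389.8 and 424 CPM against 27.8 and 11.1 (−4.67, adjusted p = 0.00662).

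**Figure D4:**
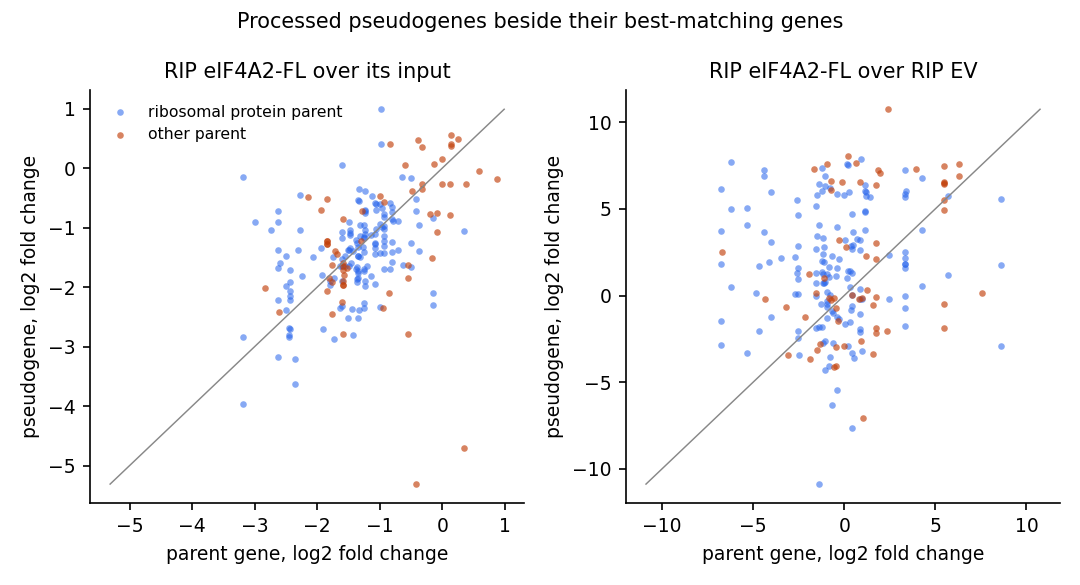
Log2 fold change of each processed pseudogene against that of its parent for 216 pairs, in RIP eIF4A2 FL over its input (left) and over RIP EV (right), with the line of equal values and ribosomal protein parents in blue. Over the input 174 pairs lie within 1 log2 unit of the line, and over RIP EV 37.

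A pseudogene was counted at a median of 11.3% of its parent's level in the inputs (quartiles 1.1–46.6%), and at more than its parent's level in 26 pairs. This ratio to the parent's counted level varied with how much of the parent's end can be read uniquely. Where under 25% of that end was unique (89 pairs) the median was 31.6% and 18 pseudogenes exceeded their parent. Where at least 75% was unique (90 pairs) it was 3.75% and 6 did. The pseudogenes' own median input level hardly differed, at 4.53 CPM for all members with under 25% (n = 102) and 4.71 CPM for those with at least 75% (n = 90). *Gm16399* stood at 1.38% of *Cox6c*, *Gm6083* at 0.984% of *Dppa5a* and *Gm9625* at 0.996% of *Rplp0*, as means of the inputs.

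Median values over input were negative at every degree of sequence divergence and uniqueness. By identity they were least negative at 99% and over, with quartiles that overlapped those of the other classes. The median in RIP eIF4A2 FL over input was −1.49 for members under 95% identity, −1.41 from 95% to under 99% and −1.10 at 99% and over. By the share of unique stretches it was −1.30 under 25% (n = 38), −1.38 up to 75% (n = 113) and −1.41 above (n = 80). Members in introns on the same strand had −0.90 (n = 27), those on the opposite strand −1.28 (n = 43) and intergenic ones −1.44 (n = 150). Against RIP EV, the members at 10 CPM or more had a median of −0.06, with 8 higher (13.6%) and 3 lower (5.08%). Those below it had 2.26, with 55 higher (32%) and 4 lower (2.33%). Of all genes, which were not split by level, 24.8% were higher and 5.46% lower. At the bound the members' medians were 0.05 and 1.35. Beside them, 18 transcribed processed pseudogenes, a separate gene type, had −0.67 over input in RIP eIF4A2 FL, 9 unprocessed pseudogenes −2.05, 120 lincRNAs −0.59 and 10087 protein-coding genes 0.06.

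To show where copy and parent differ, 50-base stretches of pseudogenes and the matching stretch of a coding exon of the parent are printed 5′ to 3′ from the mm10 genome, with the bases that differ in capitals. *Rps13-ps1* differs from *Rps13* at 1 position of its stretch and *Rps3a3* from *Rps3a1* at 2. *Gm9625* and *Rplp0* differ at 3, *Gm6083* and *Dppa5a* at 4, *Gm11942* and *Rplp1* at 5, and *Gm16399* and *Cox6c* at 6. The pseudogene stretches lie at chr8:87048092-87048141 (+), chr13:108671345-108671394 (+), chr13:67811048-67811097 (+), chr5:29538390-29538439 (+), chr4:32965098-32965147 (+) and chr3:14802412-14802461 (−), in this order. Those of the parents lie at chr7:116332379-116332428 (−), chr3:86137992-86138041 (−), chr5:115563293-115563342 (+), chr9:78367732-78367781 (−), chr9:61913409-61913458 (−) and chr15:35935359-35935408 (−).
Rps13-ps1: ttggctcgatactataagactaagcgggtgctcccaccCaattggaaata
Rps13: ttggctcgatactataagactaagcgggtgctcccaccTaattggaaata
Rps3a3: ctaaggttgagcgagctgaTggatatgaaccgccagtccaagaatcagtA
Rps3a1: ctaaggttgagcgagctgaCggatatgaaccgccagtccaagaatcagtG
Gm9625: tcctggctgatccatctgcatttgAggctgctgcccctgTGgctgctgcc
Rplp0: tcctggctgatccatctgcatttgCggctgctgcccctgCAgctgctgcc
Gm6083: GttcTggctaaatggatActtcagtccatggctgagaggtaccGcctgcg
Dppa5a: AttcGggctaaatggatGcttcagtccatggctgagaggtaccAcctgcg
Gm11942: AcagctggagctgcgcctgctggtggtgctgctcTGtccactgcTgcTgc
Rplp1: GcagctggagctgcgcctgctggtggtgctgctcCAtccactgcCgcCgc
Gm16399: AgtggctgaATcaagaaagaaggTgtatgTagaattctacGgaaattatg
Cox6c: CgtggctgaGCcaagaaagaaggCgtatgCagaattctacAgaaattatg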

How the data were processed

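The values are the authors' HTSeq counts as deposited. Per the authors' text, reads were trimmed, aligned to mm10 (STAR 2.5.3a) and assigned to genes by HTSeq-count 0.11.2. Genes were matched to GENCODE vM21 by identifier without version (52403 of 52550). Libraries were scaled by TMM. Members and lists were chosen with earlier results of these data known. Tests were edgeR 4.0.16 (R 4.3.3) quasi-likelihood fits of 4 groups on genes that reached 1 CPM in each input, with Benjamini-Hochberg at 0.05. DESeq2 1.42.0, fits of 4 libraries, a replicate block, other filters and leaving out each library were alternatives. The code was tested on simulated data with known changes. Parents came from blastn 2.17.0 against protein-coding transcripts. Named genes were the 10 most abundant members (1 is not reported here), the largest called changes per comparison and direction (or lowest p), members with listed parents, and those beside the minimum.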

Additional observations from a re-analysis of the deposited data

Results flagged for a closer look

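The change from input to RIP differed between the cell lines by edgeR's interaction term (eIF4A2 FL minus EV, log2) for 14 of the 43 named members. Many of these were named for large changes in the comparisons that make up this term, so their number is fixed by the choice (35 of all members, 15.2%, were higher, against 19.2% of all genes). The term also holds the inputs whose CPM chose the members, so its values and adjusted p-values are a description. The positive differences rest on 0 counts in both RIP EV libraries, so their sizes are not measured. *Gm16399* differed by 10.66 (adjusted p = 0.0176). *Gm7123* differed by 9.17 (adjusted p = 0.0176). For *Gm8444* the difference was 8.13 (adjusted p = 0.0209). For *Tdpx-ps1* it was 8.05 (adjusted p = 0.0227). *Ftl2-ps* stood at 7.99 (adjusted p = 0.0497). *Gm6083* stood at 7.48 (adjusted p = 0.0182). *Gm10704* had 6.96 (adjusted p = 0.0291). Of the *Gapdh* copies, *Gm8357* had 6.80 (adjusted p = 0.0304). *Gm2383* came to 5.50 (adjusted p = 0.0482). *Gm3695* came to 5.26 (adjusted p = 0.0447). The tubulin copy *Gm3226* had 6.73 (adjusted p = 0.032). Negative differences, from reads in every library, were those of 3 members. *Gm9892* had −4.68 (adjusted p = 0.0217). *Gm11531* had −4.61 (adjusted p = 0.0176). *Gm20900* had −3.47 (adjusted p = 0.0208). Each of the 14 calls ended when either RIP eIF4A2 FL library, input EV 1 or either input eIF4A2 FL library was left out. All except *Gm16399*, *Tdpx-ps1*, *Gm7123* and *Gm6083* also ended without input EV 2, and *Gm3695* and *Gm2383* without either RIP EV library. The highest adjusted p in these fits was between 0.0738 and 0.151.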

How the results depend on the processing

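Against RIP EV, the 63 members higher in RIP eIF4A2 FL became 0 with edgeR on the 4 libraries compared, 49 with the replicate block, and 38 (without RIP eIF4A2 FL 1) to 79 (without RIP EV 2) on leaving out a library. The 7 lower became 23 with DESeq2, 0 with 4 libraries, 4 with the replicate block and 0 to 37 on leaving out a library. Their median of 1.58 was 0.73 for members at 2 CPM or more and ran from 1.31 to 4.57 across libraries left out. In RIP eIF4A2 FL over input, the 0 lower became 37 with DESeq2, 76 with 4 libraries, 2 without the filter and 0 to 82 on leaving out a library. The median of −1.38 was −1.08 with library size alone and −1.49 for members under 95% identity, and ran from −1.50 to −1.25. In RIP EV over input, the 3 higher became 12 with DESeq2, 0 with 4 libraries, 5 without the filter and 0 to 30 on leaving out a library. The 113 lower became 0 with 4 libraries and 74 to 149 on leaving out a library. The largest of these numbers came without RIP EV 2. There the share of members that fell lay near that of all genes, so it is not a result about the pseudogenes. The median of −2.82 was −3.80 under 95% identity and −1.95 at 2 CPM or more, and ran from −6.43 to −2.70. Between the inputs the median of 0.15 ran from 0.07 to 0.31. Scaling to all reads gave 117 members and a minimum of 2 CPM gave 152. Without the 10 most abundant genes the shares were 0.794, 0.719, 0.906 and 1.07% in the inputs, where these genes included *Gm11942*, and 0.89% in RIP EV 1, where they included no member. Without *Gm9625*, left out after the values were seen, the share in RIP EV 1 was 0.512% in place of 0.703%. The rank correlation of pseudogene and parent against RIP EV was 0.17 with the best match of 2 or more exons, an alternative chosen after the data were seen. Under 95% identity it was 0.35 over input in RIP eIF4A2 FL and 0.24 in RIP EV. *Rps3a3* against RIP EV went from −0.06 to 0.19 with library size alone, 0.12 without the filter, 0.09 without RIP EV 2 and between −0.14 and 0.16 without RIP eIF4A2 FL 1 or 2. Replicates with the same number correlated at −0.0694 to 0.116 after group means were removed. The cause of these shifts was not tested.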
